A study of Mus musculus with 6 samples.

Results

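Heat shock proteins and DnaJ proteins are the molecular chaperones of the cell. The arrays carried 62 of their genes, out of 27573 genes with a probe. These genes were taken by the name the array design gives them, with no measured value used: names beginning with Hspa, Hspb, Hsph1, Hsp90, Hspd1, Hspe1, Dnaja, Dnajb or Dnajc, without the co-chaperones Hspbp1 and Hspbap1. Between them they had 121 probes. A gene was tested if a probe of it was well above background, by the scanner software's flag, on all 3 arrays of at least 1 treatment group. That left 56 of the 62 chaperone genes among 16472 genes tested. The 6 others (Dnajb7, Dnajb13, Dnajc5b, Dnajc5g, Dnajc6 and Hspa12a) were not well above background on all arrays of either group and have no change reported.

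The RNA came from primary keratinocytes, the cells that build the epidermis, of newborn wild type mice. Isolation from newborn skin also took hair follicle buds, per the treatment notes. All 6 cultures, the controls included, were made to express v-ras-Ha, a viral form of the Ras oncogene, by adenoviral infection at 10 particles per cell. Anakinra, a recombinant interleukin-1 receptor antagonist, went into 3 cultures at 5 ug/ml 5 hours later. It was renewed after 2 days, and RNA was taken at the end of 3 days of further culture. The other 3 cultures received PBS. The comparison asks what blocking the interleukin-1 receptor does to gene expression in keratinocytes driven by oncogenic ras. The labels do not say whether the cultures came from separate animals, so a p-value here measures the spread between 6 cultures, and that spread may be technical.

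Chaperones bind unfolded proteins and keep them from aggregating. Hsp70 proteins (Hspa genes) cycle between ATP and ADP to hold and release a client; DnaJ proteins deliver clients to them and start ATP hydrolysis; Hsp90 proteins act late on kinases and steroid receptors; small heat shock proteins (Hspb genes) hold unfolded proteins without ATP. Each compartment has its own set. In the cytosol the inducible members are switched on by the heat shock factor Hsf1, which binds inverted repeats of GAA. In the endoplasmic reticulum (ER) they belong to the unfolded protein response, in which Atf6 acts with the CCAAT-binding factor NF-Y at the ER stress element. In mitochondria Hspa9, Hspd1 and Hspe1 pull in and fold imported proteins. In epidermis, Hspb1 is a long-known chaperone of the differentiating layers.

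Some chaperone promoters hold letters that match these motifs, and a few are shown because the ER, Hsp70 and chaperonin results refer to their genes. RefSeq promoter windows (GRCm38.p6) were found for 51 of the 62 genes, and the 250 bases before the start were searched on both strands. An ER stress element was taken as CCAAT and CCACG with 9 bases between them. It occurred in 0.130% of 27025 genes (35) and in 3 of the 51 chaperone genes: Hspa5, Hsp90b1 and Dnajc3, all 3 of the ER. The heat shock pair GAANNTTC, whose strands read the same, occurred in 7.73% of all genes and in 10 of the 51 chaperone genes, 8 cytosolic and 2 mitochondrial, and in 0 of the 11 ER genes with a window. The capitals mark the matches, 5′ to 3′ on the gene's strand.
Hspa5 (chr2:34771840-34772089, plus strand): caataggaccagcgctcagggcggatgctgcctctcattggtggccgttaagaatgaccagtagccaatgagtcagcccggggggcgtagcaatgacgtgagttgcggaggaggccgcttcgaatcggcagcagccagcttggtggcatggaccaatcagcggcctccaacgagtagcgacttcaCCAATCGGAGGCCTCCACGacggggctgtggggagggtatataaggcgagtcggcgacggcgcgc
Hsp90b1 (chr10:86705445-86705694, minus strand): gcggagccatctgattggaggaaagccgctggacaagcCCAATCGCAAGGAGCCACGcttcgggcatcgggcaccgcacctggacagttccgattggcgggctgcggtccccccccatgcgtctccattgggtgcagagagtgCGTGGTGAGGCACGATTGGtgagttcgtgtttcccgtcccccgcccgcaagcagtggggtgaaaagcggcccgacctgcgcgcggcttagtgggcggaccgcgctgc
Dnajc3 (chr14:118937682-118937931, plus strand): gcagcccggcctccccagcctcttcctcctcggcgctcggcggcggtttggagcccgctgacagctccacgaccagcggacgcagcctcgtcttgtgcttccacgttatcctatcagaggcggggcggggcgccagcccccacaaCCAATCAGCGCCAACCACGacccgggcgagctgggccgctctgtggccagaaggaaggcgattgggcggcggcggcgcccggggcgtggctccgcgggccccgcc
Hspa1a (chr17:34972157-34972406, minus strand): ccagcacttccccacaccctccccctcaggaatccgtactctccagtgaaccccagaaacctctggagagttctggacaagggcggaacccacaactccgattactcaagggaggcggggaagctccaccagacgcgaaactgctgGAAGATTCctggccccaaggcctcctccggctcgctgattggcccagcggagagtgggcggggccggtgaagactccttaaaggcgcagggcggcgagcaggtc
Hspe1 (chr1:55087898-55088147, plus strand): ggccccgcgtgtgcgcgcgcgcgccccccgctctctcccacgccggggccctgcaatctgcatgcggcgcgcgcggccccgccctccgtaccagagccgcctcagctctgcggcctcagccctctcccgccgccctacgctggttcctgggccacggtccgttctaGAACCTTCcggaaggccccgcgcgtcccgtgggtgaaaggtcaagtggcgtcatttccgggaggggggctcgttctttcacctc
In Hspa5 the element lay 65 bases before the start and in Dnajc3 105 bases before it. Hsp90b1 had one copy at 212 bases and another, on the opposite strand, at 107 bases. In Hspa1a the heat shock pair began 104 bases before the start, and the window of its neighbour Hspa1b was identical at 247 of 250 bases. Hspe1 and Hspd1 are transcribed away from a common stretch: their full RefSeq windows, from 250 bases before to 50 bases after each start, share 285 of 300 bases. The 2 mitochondrial matches of the heat shock pair are the same 8 bases of that stretch, read on opposite strands. The count of 10 genes holds both, and Hspa1a and Hspa1b as well. A match is a description of these letters only.

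The arrays differed in quality within the Anakinra group. Of the non-control spots, 62.5% to 71.0% were well above background on each PBS array, but 56.1%, 86.5% and 55.6% on Anakinra arrays 1, 2 and 3. PBS arrays correlated with each other at 0.9968 or above, and the lowest correlation between Anakinra arrays was 0.984. Anakinra array 3 also differed in the 5′ to 3′ balance of its probes, described after the gene values. Slide 1 held PBS 2, PBS 3 and Anakinra 1, and slide 2 held PBS 1, Anakinra 2 and Anakinra 3. All 6 keratinocyte markers were above background. Krt1 and Krt10 rose, with changes of 2.35 and 2.40, and both were called. Krt15, Krt5, Trp63 and Krt14 had changes of 0.52, -0.14, -0.11 and -0.04 and were not called. The summed signal of the 6, in units of each array's 75th percentile, was 940 to 1059 in PBS and 895 to 994 in Anakinra. Most of it came from Krt5 and Krt14, so the sum does not show the rise of Krt1 and Krt10. That of 6 fibroblast markers was 7.01 to 8.51 and 8.69 to 9.99, with Lum and Col3a1 called higher, and that of 6 melanocyte markers 56.7 to 66.1 and 67.5 to 70.7. For 4 of 5 hair follicle markers it was 411 to 496 and 423 to 448, most of it from Krt17. Krt79 rose, while Sox9, Krt17 and Lhx2 had changes of 0.14, -0.03 and -0.09 and were not called. For 3 of 4 endothelial markers the summed signal was 2.00 to 2.12 and 1.61 to 1.91, and for 3 of 5 immune markers 0.150 to 0.220 and 0.103 to 0.440. Egfl7, Kdr, Csf1r and the fibroblast marker Dcn were lower on every Anakinra array than on every PBS array. Their changes were -0.26, -0.45, -0.33 and -0.38, and none was called. Ptprc, Cd3e, Cdh5 and Lgr5 were not above background on all arrays of either group. The part of other cells in the chaperone values was not tested. In such bulk RNA, fewer cells of a type and less RNA per cell cannot be told apart.

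None of the 56 chaperone genes passed an adjusted p of 0.05 in limma, in either direction. Over all genes 0.971% were called higher and 0.801% lower, or 1.77% in all, and the 0 of 56 is not read as a difference from that background. An unadjusted p under 0.05 was reached by 9 chaperone genes, against 16.1% of all genes. Of these, 4 were higher with Anakinra (Hspa2, Hspb8, Dnajb4 and Dnajc3; 8.49% of all genes) and 5 were lower (Hspa9, Dnaja3, Hspa1a, Hspa1b and Hspa8; 7.63% of all genes). The 3 values of one treatment lay entirely above those of the other in 15 of 56 chaperone genes, a share of 26.8%, beside 26.3% of all genes. Each slide held both treatments, so groups that lie apart have the same sign on both slides by construction. Over all 56 genes the sign was the same on both slides in 36. Changes are log2 differences, Anakinra minus PBS. Their median over the 56 genes was 0.03, beside 0.01 over all genes, with 32 positive and 24 negative. The interval of the change was narrow for most: the 95% interval lay within 1 log2 unit of 0 for 51 genes, and within 0.5 for 38. Its median half-width was 0.22.

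**Figure D1:**
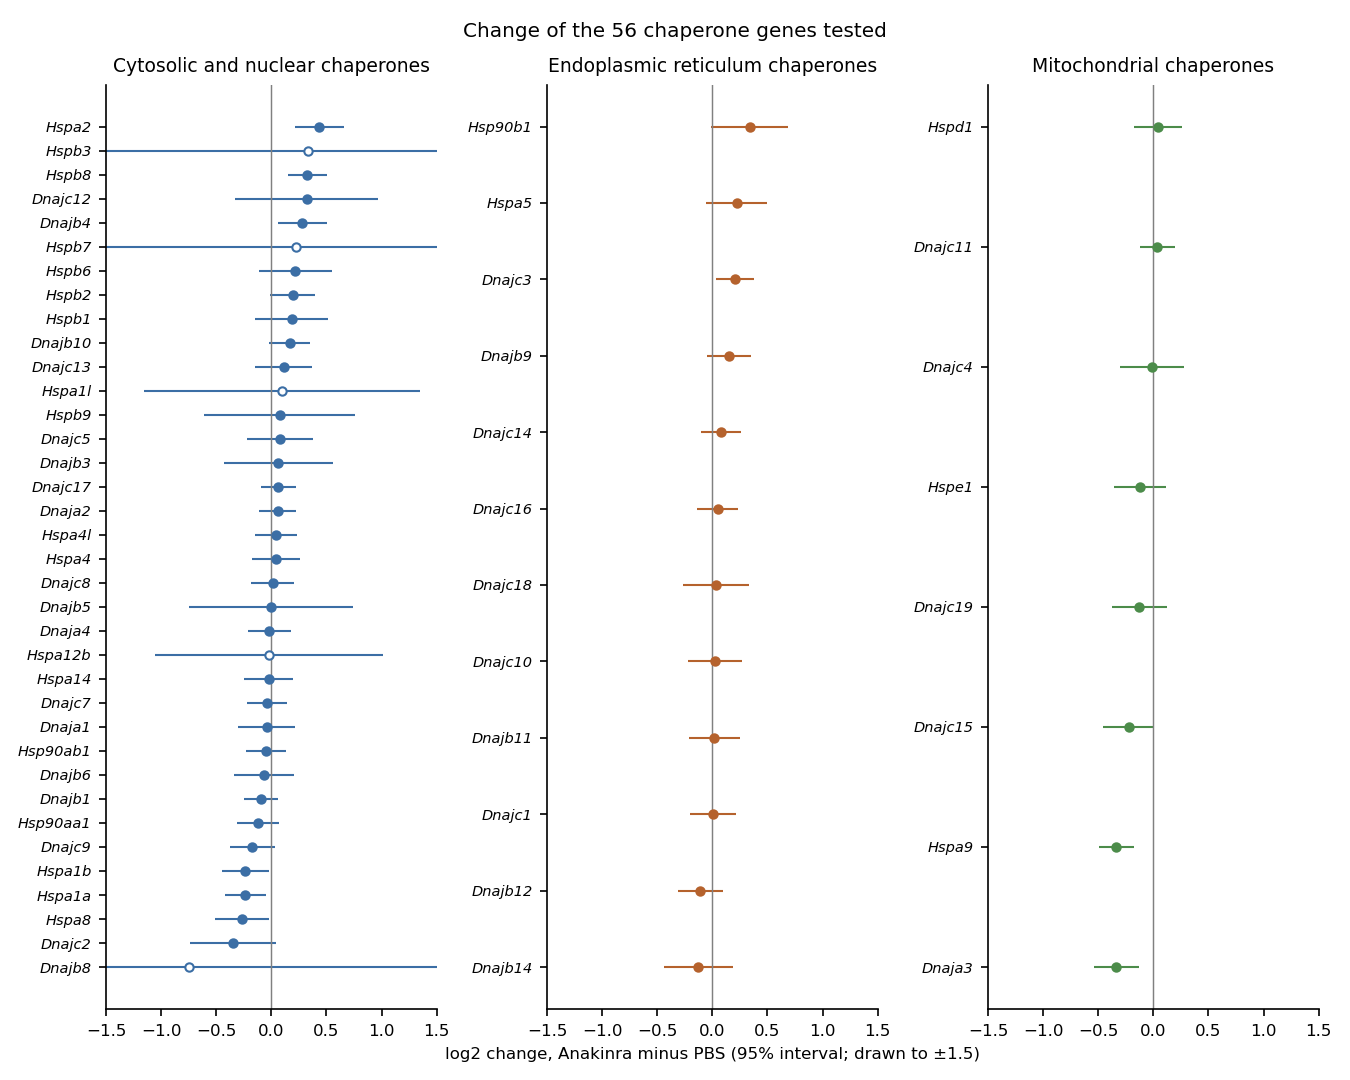
Log2 change (Anakinra minus PBS) of the 56 tested chaperone genes by compartment, with limma's 95% interval as a bar, cut at the edge of the axis; open points are genes not above background on every Anakinra array. Most points lie within 0.5 of 0, and the 5 open points have the widest bars.

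Among the cytosolic Hsp70 genes, Hspa2, known for its role in spermatogenesis, had the largest positive change of all 56. Values below are log2 signal relative to the array's own 75th percentile and are compared only within a gene. Hspa2 read 0.81, 0.73 and 0.82 in PBS and 1.24, 1.34 and 1.08 in Anakinra (mm8 chr12:77325056-77325115). All 3 Anakinra arrays lay above all 3 PBS arrays. The change was 0.43 ± 0.09 (SE, n = 3 and 3), a 1.35-fold difference, with an adjusted p of 0.0955 in limma. A second probe gave 0.47. With normexp background correction the change was 0.45 and its adjusted p 0.0442 in limma, the only alternative in which Hspa2 was called.

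The stress-inducible pair Hspa1a and Hspa1b, which encode nearly the same Hsp70 protein, read lower on every Anakinra array. Hspa1a read 2.91, 2.96 and 2.86 in PBS and 2.76, 2.69 and 2.58 in Anakinra. Hspa1b read 4.01, 3.93 and 3.93 in PBS and 3.86, 3.66 and 3.65 in Anakinra. Neither gene overlapped between groups, and the same held for both probes of each, with changes from -0.60 to -0.24 over these probes. The changes of the probes that stand for the genes were -0.24 ± 0.07 for Hspa1a and -0.24 ± 0.08 for Hspa1b, with adjusted p of 0.214 and 0.265 in limma. Because the copies are near-identical, a probe may read both, so the 2 genes are not independent measurements.

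Hspa8, the constitutive cytosolic Hsp70, gave readings that depended on the probe. Its brighter probe (chr9:40554128-40554187) read 6.88, 6.86 and 6.86 in PBS and 6.75, 6.63 and 6.43 in Anakinra, with no overlap. The change was -0.27 ± 0.10, with an adjusted p of 0.276 in limma. Its other probe, 1532 bases nearer the 3′ end, gave 0.07. Hspa4, Hspa4l and Hspa14, the Hsp110-type exchange factors and a ribosome-associated Hsp70, had changes of 0.04, 0.04 and -0.02, all with overlapping groups. Other probes that passed the filter gave 0.06 and -0.21 for Hspa4, and 0.04 to 0.23 for Hspa4l. The older-named Hsph1, another Hsp110 protein listed on the array as Hsp110, had a change of 0.04 ± 0.10.

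At the probes that stand for them, the cytosolic Hsp90 genes had changes near 0 with narrow intervals. Hsp90ab1, the constitutive form, read 6.66, 6.67 and 6.67 in PBS and 6.67, 6.51 and 6.66 in Anakinra. Its groups overlapped, and the change was -0.05, with a 95% interval from -0.23 to 0.13. A second Hsp90ab1 probe, 1277 bases further 5′, gave -0.17, with every Anakinra array below every PBS array. Hsp90aa1, the inducible form, read 5.82, 5.89 and 5.74 in PBS and 5.66, 5.64 and 5.78 in Anakinra. The groups of Hsp90aa1 overlapped, with a change of -0.12 and an interval from -0.32 to 0.07.

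The small heat shock protein genes above background on all arrays had changes from 0.08 to 0.33, which become -0.25 to 0.00 with scaling to array medians, beside -0.32 over all genes. Hspb8, which works with the co-chaperone Bag3 in chaperone-assisted autophagy, read 2.67, 2.71 and 2.73 in PBS and 3.12, 2.95 and 3.02 in Anakinra (chr5:116670053-116670112). Every Anakinra array lay above every PBS array, by 0.40 within slide 1 and 0.32 within slide 2. The change was 0.33 ± 0.07, or 1.25-fold, with an adjusted p of 0.107 in limma. Over the alternatives its smallest adjusted p was 0.0657 in limma, after quantile normalisation. Bag3 itself had a change of 0.24 ± 0.09 and an adjusted p of 0.302 in limma.

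Hspb1, the keratinocyte Hsp27, read 8.44, 8.17 and 8.26 in PBS and 8.52, 8.64 and 8.25 in Anakinra. The groups overlapped, and the change was 0.19 ± 0.13, with 0.10 without Anakinra array 2 and 0.29 without Anakinra array 3. A second Hspb1 probe was not above background and the array design places it on another chromosome. Hspb2 and Hspb6, small heat shock proteins best known from muscle, had changes of 0.19 and 0.22, the first without overlap between groups. Hspb9 stood at 0.08.

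A further 5 genes, Hspb3, Hspb7, Hspa1l, Hspa12b and Dnajb8, were above background in PBS but not on every Anakinra array. In all 5 Anakinra array 2 read highest, by 0.82 to 2.55 above the PBS mean, and the half-widths of their intervals ran from 1.03 to 3.34. Hspb7 shows the spread, since its probe was spotted 10 times per array. The 3 PBS arrays averaged -4.73, -4.78 and -3.93, and the Anakinra arrays -6.48, -1.93 and -4.37, with a spot SD of 0.12 to 0.53. The Anakinra arrays thus differed by more than the spots within any of them. Dnajc11, a brighter gene whose probe was also spotted 10 times, read -0.45 to -0.38 in PBS and -0.42 to -0.33 in Anakinra, with a spot SD of 0.04 to 0.06. Dnajb8, a DnaJ protein that suppresses aggregation, had the lowest change of all members, -0.75 ± 1.32. Without Anakinra array 2 it came to -2.26 with an adjusted p of 0.0387 in limma, and the 2 remaining Anakinra arrays were then not above background. No level with Anakinra can be read from it.

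The cytosolic DnaJ genes that serve Hsp70 had changes of both signs. Dnajb4 read 0.61, 0.68 and 0.74 in PBS and 0.91, 0.86 and 1.09 in Anakinra. Its groups did not overlap, with a change of 0.28 ± 0.09 and an adjusted p of 0.224 in limma. A second probe gave 0.38 and the remaining, dim one -0.06. Dnajb1, the main partner of inducible Hsp70, read 3.41, 3.42 and 3.40 in PBS and 3.36, 3.32 and 3.26 in Anakinra. There was no overlap, but the change was only -0.09, with an interval from -0.25 to 0.06. Dnaja1 and Dnajb6 had changes of -0.04 and -0.07 with overlapping groups. Another 9 (Dnaja2, Dnaja4, Dnajb3, Dnajb5, Dnajc5, Dnajc7, Dnajc8, Dnajc13 and Dnajc17) overlapped too, with changes from -0.04 to 0.11. Where these genes had other probes that passed the filter, those gave from -0.26 (Dnaja4) to 0.25 (Dnajb5).

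Dnajc2, a ribosome-associated DnaJ protein that assists nascent chains, was lowest among genes above background on all arrays. It read 2.63, 2.59 and 2.65 in PBS and 2.50, 2.38 and 1.95 in Anakinra. The groups were apart, but 1 array carried much of the difference: the change was -0.35 ± 0.15, and -0.18 without Anakinra array 3. Its probe nearest the 3′ end gave 0.18. Dnajb10, now called Dnajb2 and known from neurons, had a change of 0.17 without overlap, and Dnajc9, a histone chaperone, one of -0.17 without overlap. Dnajc12 had a change of 0.32 ± 0.24 from 2 PBS values, since its PBS 3 spot was an outlier and was left out.

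Over the 36 tested cytosolic and nuclear genes of 42, the median change was 0.04. Anakinra arrays 1, 2 and 3 had medians of 0.04, 0.01 and 0.00 against the PBS means, and the 3 PBS arrays ranged from -0.01 to 0.01. The median was -0.02 without Anakinra array 2, 0.00 with array weights, and -0.29 with scaling to array medians, where all genes stood at -0.32. It lay above the median of all genes in 14 of 17 alternatives, the exceptions being normexp, no filter on dim probes and leaving out Anakinra array 3.

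**Figure D2:**
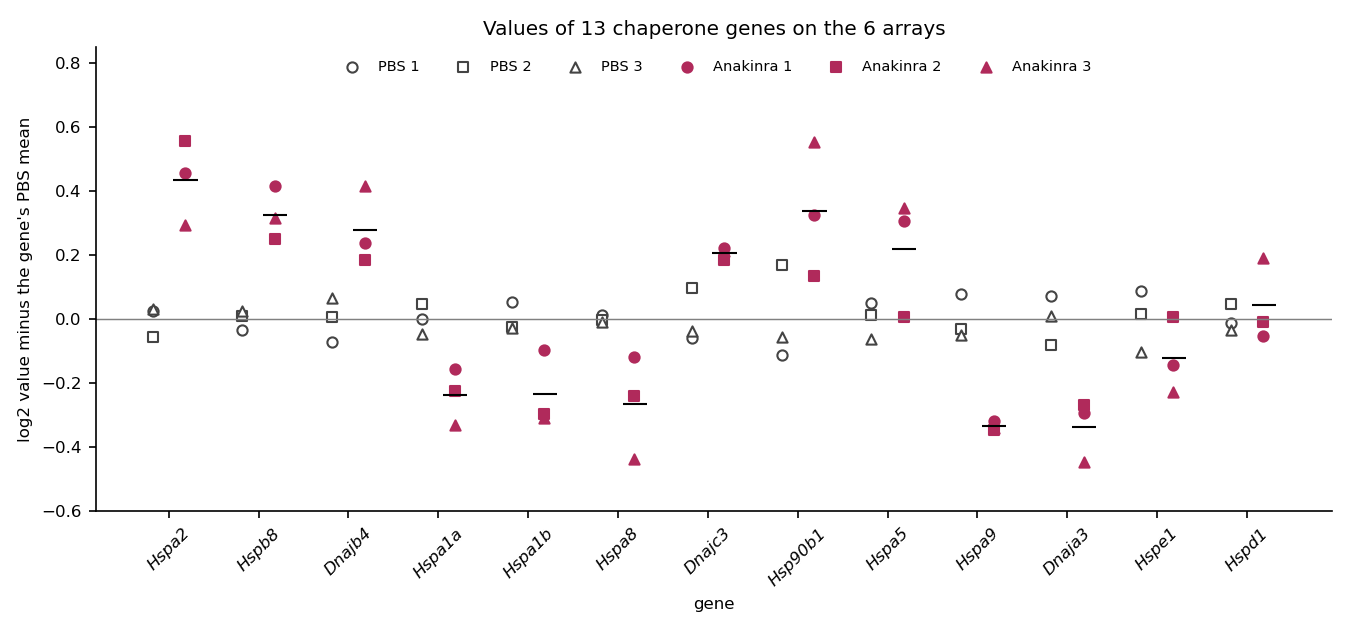
Values of 13 chaperone genes on the 6 arrays, as log2 value minus that gene's PBS mean; open symbols are PBS, filled symbols Anakinra, and bars are Anakinra means. Hspa2, Hspb8, Dnajb4 and Dnajc3 sit above all PBS points, Hspa1a, Hspa1b, Hspa8, Hspa9 and Dnaja3 below, and Hsp90b1, Hspa5, Hspe1 and Hspd1 overlap.

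In the ER set, 10 of 12 genes had a positive change, and the median was 0.04, which becomes -0.29 on the median scale, where all genes stood at -0.32. The 4 ER genes with the smallest p were Dnajc3, Hsp90b1, Hspa5 and Dnajb9, all of them positive, and the first 3 carry the ER stress element printed above. Dnajc3, a DnaJ partner of Hspa5 that also inhibits the kinase Eif2ak2, read 1.53, 1.68 and 1.55 in PBS and 1.81, 1.77 and 1.80 in Anakinra. Its groups did not overlap, and the change was 0.21 ± 0.07 with an adjusted p of 0.243 in limma. All 4 of its probes gave a positive change, from 0.05 to 0.21.

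Hsp90b1, the ER form of Hsp90, also called Grp94, read 4.19, 4.48 and 4.25 in PBS and 4.63, 4.44 and 4.86 in Anakinra. Anakinra array 2 lay below PBS 2, so the groups overlapped. The change was 0.34 ± 0.14 with an adjusted p of 0.329 in limma, and its probe 7559 bases further 5′ gave 0.01. Hspa5, the ER Hsp70 known as BiP, read 4.73, 4.69 and 4.62 in PBS and 4.99, 4.69 and 5.03 in Anakinra. Arrays 1 and 3 lay above PBS and array 2 among the PBS values. The change was 0.22 ± 0.11 with an adjusted p of 0.415 in limma, with 0.33 without Anakinra array 2 and 0.16 without Anakinra array 3.

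Dnajb9, an ER DnaJ protein that acts on the stress sensor Ern1, had a change of 0.15 ± 0.08, with overlap. Its 3 probes gave 0.15, 0.25 and -0.16, the last for the probe nearest the 5′ end. Dnajb11 and Dnajc10, cofactors of Hspa5, had changes of 0.02 and 0.02. The 2 negative genes were Dnajb12 at -0.11 and Dnajb14 at -0.13, both anchored in the ER membrane. Dnajc1, Dnajc14, Dnajc16 and Dnajc18 had changes from 0.005 to 0.08, all with overlap. The other Dnajc1 probes that passed the filter gave -0.24 and 0.16. The first lay below PBS on every Anakinra array and the second above it. The older-named Hspa13, an ER Hsp70 listed as Stch, had a change of 0.24 ± 0.16. Across the series, 19 tested genes carried the ER stress element, the 3 chaperones included. Their median change was 0.13, with 14 of the 19 positive, beside a median of 0.01 and 52.3% positive over all genes tested. The 702 tested genes with the heat shock pair had a median of 0.01, with 369 positive. The 19 genes with the ER stress element include Calr at 0.27, Canx at 0.14 and Pdia6 at 0.07, all ER folding factors. Creld2 at -0.10 and Syvn1 at -0.09, targets or effectors of the same response, are also among these 19.

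In the mitochondrial set 6 of 8 genes had a negative change, and the median was -0.12. That median was negative in all 17 alternatives, and closest to 0, at -0.04, with normexp background correction. Hspa9, the matrix Hsp70 called mortalin, had the smallest p of all 56 genes. It read 4.97, 4.86 and 4.84 in PBS and 4.57, 4.55 and 4.55 in Anakinra (chr18:35065387-35066205). The groups lay well apart, and the difference was -0.28 within slide 1 and -0.42 within slide 2. The change was -0.33 ± 0.06 with an adjusted p of 0.0855 in limma. The probe nearest the 3′ end gave -0.16, with an adjusted p of 0.438 in limma.

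Dnaja3, the DnaJ partner of Hspa9 called Tid1, read 1.54, 1.39 and 1.48 in PBS and 1.17, 1.20 and 1.02 in Anakinra. There was again no overlap, and the change was -0.34 ± 0.08 with an adjusted p of 0.138 in limma. Its other probe, nearer the 3′ end, gave -0.08. That probe was the brighter of the pair, and so stood for the gene, with normexp background correction (-0.02), without PBS 1 (-0.07) and without PBS 3 (-0.09). Dnajc15, which sits at the import channel of the inner membrane, read 3.99, 3.97 and 3.94 in PBS and 3.84, 3.82 and 3.57 in Anakinra. Its groups were apart, with a change of -0.22 ± 0.09 and an adjusted p of 0.330 in limma. Without Anakinra array 3 the change was -0.14.

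The chaperonin pair had overlapping groups. Hspe1 (Hsp10) read 4.90, 4.83 and 4.71 in PBS and 4.67, 4.82 and 4.59 in Anakinra, a change of -0.12 with overlap, and of -0.07 without Anakinra array 3 and -0.18 without Anakinra array 2. Hspd1 (Hsp60), the ring it caps, read 5.32, 5.38 and 5.30 in PBS and 5.28, 5.32 and 5.52 in Anakinra, a change of 0.04 with overlap. The interval ran from -0.36 to 0.11 for Hspe1 and from -0.18 to 0.26 for Hspd1. Dnajc19, another import-channel protein, stood at -0.13, and Dnajc11 and Dnajc4 at 0.04 and -0.01.

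How far the mitochondrial median moved differed between arrays: it was -0.10, -0.02 and -0.27 against the PBS means on Anakinra arrays 1, 2 and 3. The median was -0.05 without array 3 and -0.18 without array 2. The median over all genes on these arrays was -0.04, 0.07 and -0.06.

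Where a gene had probes at different positions, the reading moved with the position of the probe. Probes at least 300 bases apart in the array design were available for 27 chaperone genes, an analysis added after the values were seen. The change was lower at the 5′ probe than at the 3′ probe in 22 of the 27 (81.5%), with a median difference of -0.17. Over 4488 genes of the array the same held for 65.8%, with a median difference of -0.07. By array, the median difference from PBS was -0.13, -0.08 and -0.29 for chaperone genes on Anakinra arrays 1, 2 and 3, and -0.01, 0.05 and -0.26 over all genes. On Anakinra array 3 the 5′ probe, relative to the 3′ probe, was below the PBS mean in 26 of the 27 genes.

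The sign of the change differed between the 2 probes in 13 of the 27 genes, among them Hspa8, Dnajc2, Dnajb9 and Dnajc10. The widest gap was that of Dnajc2. Some genes had nearly the same change at both probes. Hspa2 had 0.43 and 0.47, Dnajc3 0.16 and 0.19, and Hspb2 0.21 and 0.19. Hspa4l had 0.05 and 0.04, and Dnajb1 -0.08 and -0.09. The probes of Hspa2 and Hspb2 lay only 482 and 463 bases apart in the design. Pairs that close cannot show a difference between the ends of a transcript. Hspa1b was negative at both, -0.60 and -0.24, as were Hspa9 and Dnaja3. With the probe nearest the 3′ end standing for every gene, the medians were 0.07 for the cytosolic, 0.14 for the ER and -0.10 for the mitochondrial set, and 0 of the 56 genes were called, with 5 at an unadjusted p under 0.05. What probe position contributes to the changes was not tested.

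**Figure D3:**
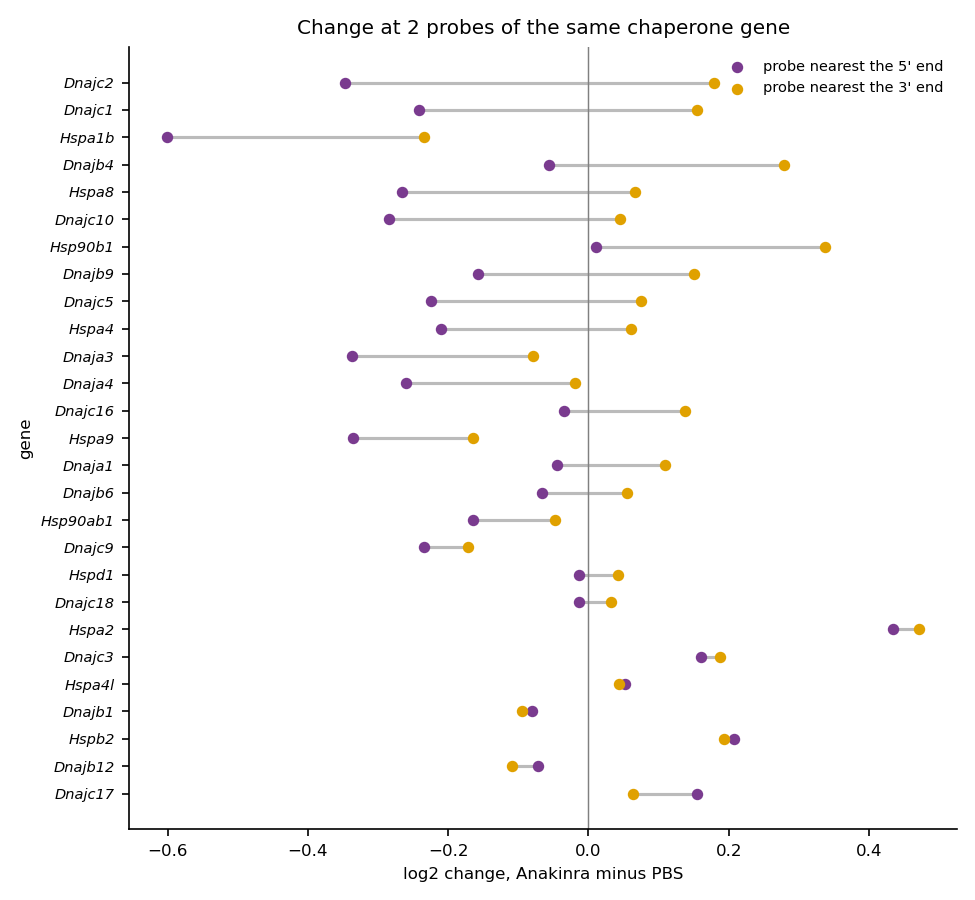
Log2 change at the probe nearest the 5′ end and the probe nearest the 3′ end of the same gene, for 27 chaperone genes with probes at least 300 bases apart. The 5′ point lies left of the 3′ point in 22 of the 27 genes, and most widely in Dnajc2.

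The genes that work with these chaperones were read from 4 lists. None of their 69 genes was called in limma, where 1.77% of all genes were, and 14 had an unadjusted p under 0.05, as did 16.1% of all genes. Of 23 cytosolic co-chaperones and heat shock factors, 14 had a negative change, and the median was -0.09. An unadjusted p under 0.05 was reached by 3 lower genes (7.63% of all genes) and 1 higher one, Bag3 (8.49% of all genes). Fkbp4, an Hsp90-bound immunophilin, had the smallest p, with a change of -0.36 ± 0.09 and an adjusted p of 0.156 in limma. Stip1, which links Hsp70 to Hsp90, followed with -0.20 ± 0.07 and an adjusted p of 0.272 in limma. Hsf1 had a change of -0.14 with a wide interval, from -0.55 to 0.27.

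The TRiC ring and its feeder prefoldin, which fold actin and tubulin, had the narrowest range of changes of the 4 lists. The median of 14 genes was 0.04, their changes ran from -0.19 to 0.14, and all 14 intervals lay within 0.5 of 0. Pfdn6 at -0.19 and Cct2 at 0.11 had the smallest p, with adjusted p of 0.252 and 0.455 in limma. Of 21 ER folding and unfolded protein response genes, 13 were positive, with a median of 0.05. The ER stress kinase Eif2ak3 stood at 0.30 ± 0.08 with an adjusted p of 0.178 in limma. The stress-induced factor Ddit3 stood at -0.26 ± 0.08 with an adjusted p of 0.200 in limma. The folding factors Pdia4 and Calr had 0.33 and 0.27, and Sil1, the exchange factor of Hspa5, had -0.23.

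Among 11 mitochondrial quality control genes, 8 were negative and the median was -0.12, the same as for the mitochondrial chaperones. Grpel2, a nucleotide exchange factor for Hspa9, had a change of -0.36 ± 0.07 with an adjusted p of 0.0776 in limma, and it was called (adjusted p 0.0464 in limma) when only probes above background on all arrays were tested. Lonp1, the matrix protease, had -0.49 ± 0.10 with an adjusted p of 0.0929 in limma. Clpp and Trap1, a protease and the mitochondrial Hsp90, had -0.27 and -0.23, while Clpx, the partner of Clpp, had 0.21. On Anakinra arrays 1, 2 and 3 the median of the list was -0.14, -0.07 and -0.27 against PBS, in the order of the arrays seen for the mitochondrial chaperones.

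**Figure D4:**
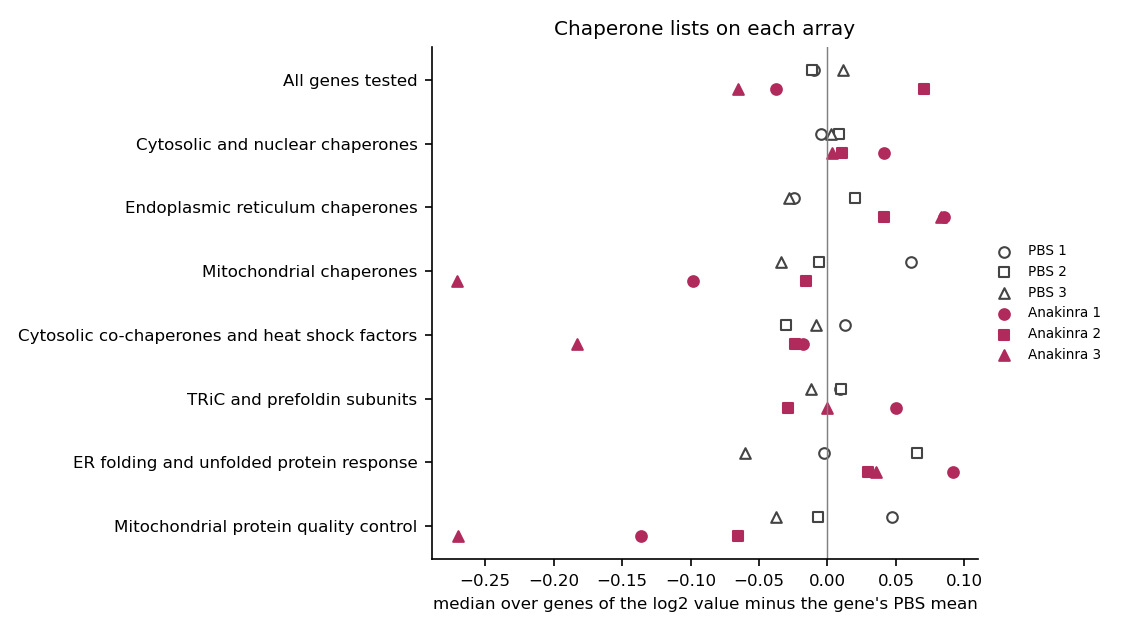
Median over the genes of each list of the log2 value minus the gene's PBS mean, on each of the 6 arrays (open PBS, filled Anakinra). Both mitochondrial lists lie lowest on Anakinra array 3, at -0.27 each, and the ER chaperones lie at 0.04 to 0.08 on the Anakinra arrays.

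Another 10 chaperone genes sit on the array under older names, among them Hsph1 and Hspa13 above. None was called in limma, where 1.77% of all genes were, and 0 of the 10 had an unadjusted p under 0.05. Their median change was -0.13, with 4 positive and 6 negative. Dnajc24, a cofactor of diphthamide synthesis, was the only one whose groups did not overlap, at -0.11.

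The choice of scale sets where 0 lies. Scaling each array to its median in place of its 75th percentile lowered every named change by 0.33 and brought the median over all genes to -0.32, so 9 of the 12 positive named changes turned negative on that scale. The mitochondrial median lay below that of all genes in all 17 alternatives, and the ER median above it in 16, the exception being no filter on dim probes.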

How the data were processed

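RNA from 6 keratinocyte cultures, 3 with PBS and 3 with Anakinra, was hybridised to 6 one-colour Agilent arrays and labelled with Alexa-555, per the labels. Each deposited scanner file gives an intensity for every spot, made by the authors with Agilent Feature Extraction 9.5.3.1, per the file headers. That processed intensity is background-subtracted and detrended within an array, with nothing scaled between arrays. The authors also deposited a log2 table, which equals the log2 processed intensity plus 1 constant per array, within 0.001. The median of its PBS columns was 5.77, 5.83 and 6.22, that of its Anakinra columns 5.74, 7.00 and 6.21. How these constants were set is not given.

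From these files the log2 intensity minus the array's 75th percentile was computed. Control and outlier spots were left out and spots of a probe averaged. Of the probes above background on all arrays of a group, with at least 2 values per group, the brightest stood for its gene. The groups were compared with limma 3.58.1 (R 4.3.3, lmFit and eBayes), two-sided, with Benjamini-Hochberg adjustment over 16472 genes and equal spread assumed in both groups. The fit was tested on simulated data. Of 41174 probes, 23374 were named by accession, 6733 by symbol and 2919 by a synonym through RefSeq (GRCm38.p6), and 8148 kept the file's name. Positions of probes are on mm8, and no annotation of that build was used here. Depth does not apply to arrays; their number, 3 per group, limits the precision.

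The genes and lists were chosen with earlier results of these data known. Named were 22 well-known chaperones, the 4 smallest p per compartment, the 3 highest and 3 lowest changes, any called gene, and 2 genes per partner list; others were named after their values were seen. Alternatives covered scaling, background, filter, probe choice, slide, replicate number, array weights and each array left out.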

Additional observations from a re-analysis of the deposited data

How the results depend on the processing

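Over 17 alternatives the 26 named chaperone genes gave 440 changes, of which 402 kept their direction and 2 passed the threshold. Array median scaling lowers every change alike; over the other 16 alternatives 385 of 414 kept their direction, and 16 genes kept it throughout. In limma, 1 gene was called higher with normexp background correction (Hspa2), and 0 to 1 were called lower when 1 array was left out (Dnajb8 without Anakinra array 2). Among partner genes 1 was called lower with probes above background on all arrays (Grpel2). Over all genes, calls higher and lower numbered 8 and 49 with array median scaling, 7 and 29 with no filter on dim probes, 338 and 241 with probes above background on all arrays, and 23 and 41 with the slide as a block; leaving out 1 array gave 1 to 97 higher and 7 to 137 lower. The replicate block left 0 and 0, and 5 chaperone genes at an unadjusted p under 0.05. Deviations of same-numbered arrays correlated at 0.41, -0.49 and -0.21, and those of different-numbered arrays at -0.67 to 0.70. With 3 arrays per group these values cannot decide whether the cultures were paired, which the labels do not state. The median over all 56 genes was -0.30 with array median scaling, 0.0855 in the deposited values, 0.0072 with normexp, 0.0133 with the slide as a block, 0.0585 with the 3′ probe, and 0.0112 to 0.0372 with 1 array left out. The cytosolic median was -0.29 with array median scaling, 0.0114 with quantile normalisation, 0.0992 in the deposited values, 0.0175 with normexp, 0.0641 with no filter, 0.0261 with probes above background on all arrays, 0.0118 with the slide block, -0.0043 with array weights, 0.0655 with the 3′ probe, and -0.0235 to 0.063 with 1 array left out. The ER median was -0.29 with array median scaling, 0.0676 with quantile normalisation, 0.0972 in the deposited values, 0.0687 with array weights, 0.144 with the 3′ probe, and 0.0343 to 0.0946 with 1 array left out. The mitochondrial median was -0.45 with array median scaling, -0.0366 with normexp, -0.0584 with quantile normalisation, -0.0665 in the deposited values and -0.18 to -0.05 with 1 array left out. The 3′ probe was chosen after seeing the data. Dim genes, read unevenly on Anakinra array 2, set the limit of what signal over background can show. With 3 arrays per group the median half-width of the 95% interval was 0.22 for the chaperone genes, and changes larger than that were not called, so 0 calls do not show that the genes did not change.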
